A study of Homo sapiens with 10 samples.

Results

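The genes described here are the transcriptional targets of the tumour suppressor p53 in human embryonic stem cells that carry a knockout of KCNH2. The set holds 36 named genes, chosen by symbol and joined by Ensembl gene identifier to the raw counts of 10 polyA RNA-seq libraries. All 36 symbols matched 1 gene each among the 32152 genes of the count table, and all 36 passed the filter on low counts, as did 19163 genes in all. The cells are the line WAe009-A (H9), with 5 libraries labelled as KCNH2 knockout (KCNH2-/-, named a knockdown in the genotype field) and 5 of isogenic wild-type (WT) cells. The KCNH2 product is the hERG1 potassium channel. The study set them side by side to find transcripts that depend on KCNH2. Both groups grew undifferentiated on Matrigel. Per the labels, knockout cells were kept in mTeSR Plus and WT cells in TeSR-E8, so genotype and medium cannot be told apart in any comparison below. The titles of the knockout libraries share the prefix 57, and neither the number of clones nor separate cultures are given in the labels, so a p-value here reflects no more than how far these libraries scatter, which may be technical.

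p53 is a transcription factor that is held at low levels by the ubiquitin ligase MDM2 and is stabilised when DNA damage, ribosomal stress or other insults release it. It binds a response element made of paired decamers and raises genes that stop the cell cycle, repair DNA, change metabolism or trigger mitochondrial and receptor-driven apoptosis. MDM2 and PPM1D are themselves targets, which closes negative feedback loops. Human pluripotent stem cells are known for a short G1 phase and for readily undergoing p53-dependent apoptosis after DNA damage.

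Promoter sequence was examined first, since members of the set share a regulator. RefSeq promoter windows (GRCh38.p14, 250 bases before to 50 bases after each annotated start) were matched by symbol for 29 of the 36 genes, all but TRIM22, TNFRSF10A, PHLDA3, RRM2B, GADD45A, TP53INP1 and TNFRSF10B. They were searched for the p53 consensus decamer in 2 directly abutting copies, with at most 3 mismatches over 20 bases and with the C at position 4 and the G at position 7 of each decamer required. The decamer reads the same on both strands, so 1 search covers both. Such a match lay in a window of 9 of the 29 genes (31.0%), against 373 of 27305 genes with any RefSeq promoter window (1.37%). The matches are given with up to 5 flanking bases on each side and the match itself in capitals, because they are the letters that the search counted. Known targets were partly identified through such elements, so the share describes the list. A match is one of letters and says nothing about binding in these cells.
DDB2 (chr11:47214964-47214993, plus strand): gctccAAGCTGGTTTGAACAAGCCCtgggc
MDM2 (chr12:68808918-68808947, plus strand): gagctGGTCAAGTTCAGACACGTTCcgaaa
FAS (chr10:88991304-88991333, plus strand): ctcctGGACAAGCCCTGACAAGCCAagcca
AEN (chr15:88621301-88621330, plus strand): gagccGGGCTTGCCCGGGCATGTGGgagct
SESN1 (chr6:109009013-109009042, minus strand): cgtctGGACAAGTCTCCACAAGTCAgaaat
RPS27L (chr15:63157522-63157551, minus strand): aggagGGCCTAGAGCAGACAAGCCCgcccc
FDXR (chr17:74872991-74873020, minus strand): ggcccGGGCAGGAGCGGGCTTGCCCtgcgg
PMAIP1 (chr18:59899806-59899835, plus strand): gtcggGAGCGTGTCCGGGCAGGTCGcgctc
GDF15 (chr19:18386181-18386207, plus strand): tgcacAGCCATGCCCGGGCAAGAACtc

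The match in DDB2 had 1 mismatch, those in MDM2, FAS and AEN had 2 each, and those in the other 5 genes had 3. In MDM2 it began 94 bases before the annotated start of a transcript that starts inside the gene body, and in GDF15 it lay 29 to 48 bases after the start, within the transcribed part. Other windows also lay inside the annotated gene. That of GDF15 began at chr19:18385908, in a gene that begins at 18374731. That of SESN1 ended at chr6:109009238, in a minus-strand gene that reaches 109094819. All 9 genes with a match rose in the knockout, with a median log2 fold change of 0.67 over a range of 0.41 to 3.33. Of the 20 genes with a window but no match, 17 rose, with a median of 0.52 over a range of -0.62 to 1.91. The set was chosen with earlier results of these data known, and 21.9% of all tested genes rose. No match in this window leaves out sites elsewhere in a gene, so these values are given side by side without a test. The 250 bases upstream of the transcript start used for the window are given in full for MDM2, AEN and SESN1, with the match in capitals. These are 3 genes whose libraries did not overlap between the groups.
MDM2 (chr12:68808767-68809016, plus strand): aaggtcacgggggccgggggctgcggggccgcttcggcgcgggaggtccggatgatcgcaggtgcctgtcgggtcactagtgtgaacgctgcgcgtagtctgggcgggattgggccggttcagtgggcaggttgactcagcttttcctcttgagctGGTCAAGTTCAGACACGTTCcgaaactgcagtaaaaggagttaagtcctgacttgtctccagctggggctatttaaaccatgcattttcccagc
AEN (chr15:88621090-88621339, plus strand): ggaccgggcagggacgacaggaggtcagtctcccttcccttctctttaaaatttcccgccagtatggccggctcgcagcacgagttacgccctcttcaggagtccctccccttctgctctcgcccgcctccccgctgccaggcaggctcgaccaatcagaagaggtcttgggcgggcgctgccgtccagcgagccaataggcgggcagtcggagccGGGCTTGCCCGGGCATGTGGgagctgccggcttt
SESN1 (chr6:109008989-109009238, minus strand): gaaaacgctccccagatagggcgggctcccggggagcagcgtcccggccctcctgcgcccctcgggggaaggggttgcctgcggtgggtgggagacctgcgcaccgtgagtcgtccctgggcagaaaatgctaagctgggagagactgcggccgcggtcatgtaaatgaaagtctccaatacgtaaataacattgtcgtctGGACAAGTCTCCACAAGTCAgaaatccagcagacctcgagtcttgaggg

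**Figure D1:**
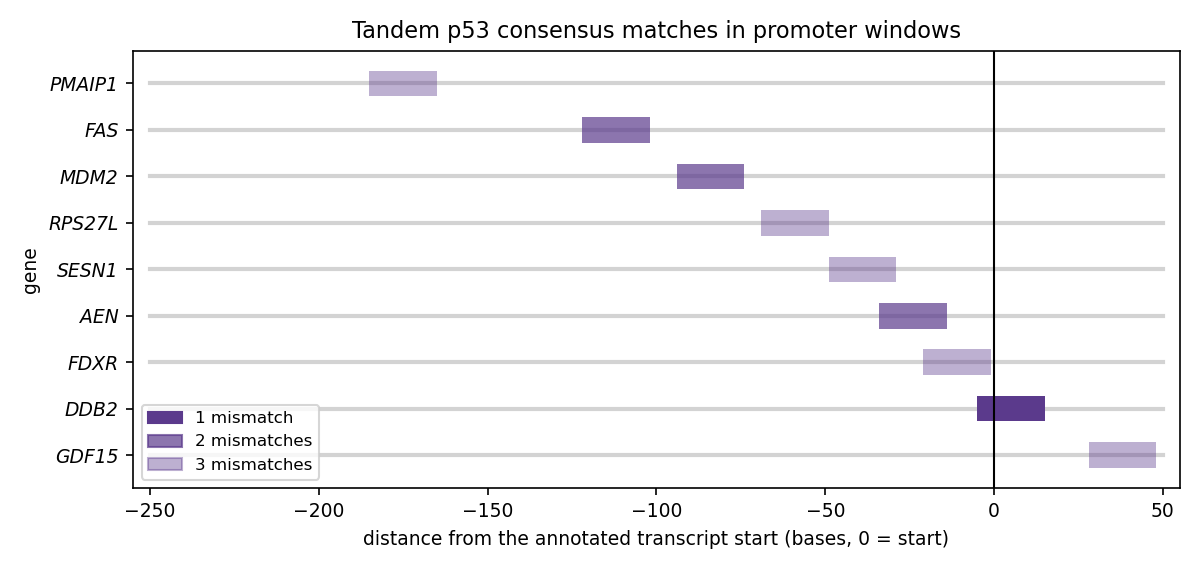
Position of the tandem p53 consensus match in the promoter windows of the 9 genes that held one. The x axis gives the distance from the annotated transcript start in bases, grey lines are the windows from 250 bases before to 50 bases after the start, and darker bars have fewer mismatches. The matches lie between 185 bases before (PMAIP1) and 48 bases after (GDF15) the start.

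Total counts ran from 29788732 to 40587206 in knockout libraries, against 28615751 to 47319933 in WT libraries. Levels are CPM, counts per 1000000 of the library size scaled by the trimmed mean of M-values (TMM), and a library with 0 counts of a gene allows up to 3 counts, or 0.0634 to 0.105 CPM, which covers counting error only. KCNH2 mRNA measured 11.2, 13.2, 13.2, 12.2 and 11.2 CPM in knockout replicates 1 to 5, against 14.9, 16.1, 14.7, 16.4 and 15.4 CPM in WT replicates 1 to 5 (log2 fold change -0.35, SE 0.06, adjusted p = 0.000648), lower but still present in the libraries labelled as knockout. Counts over the whole gene do not check the loss of the protein. On the second principal component of log2 CPM (28.3% of variance) knockout replicates 1 to 5 were at 13.9, 5.71, -59.1, -2.26 and -2.04, so replicate 3 stood apart, and WT replicates 1 to 5 were at 25.3, -10.1, -32.2, 35.8 and 25.0. Of 10 pluripotency markers, 5 rose and 0 fell. Of all tested genes 21.9% rose and 24.1% fell, and 46.0% passed in either direction. POU5F1 averaged 3214 ± 229 CPM in knockout cells and 2617 ± 64 CPM in WT cells. Of 19 markers of differentiated cells, 15 were in the table and 6 passed the filter. Of these 6, 3 were lower in the knockout, against 24.1% of all tested genes. The summed level of the 15 was 85.3 to 94.4 CPM in knockout libraries and 122 to 127 CPM in WT libraries, mostly COL1A1. No library held more than 0.168 CPM of PAX6, SOX1 or EOMES. The part of such cells in the results was not tested. Tests are those of edgeR (quasi-likelihood), adjusted by Benjamini and Hochberg's method over all 19163 genes, with a threshold of 0.05. Adjusted p-values below come from that fit unless another fit or the authors are named, and values with ± are mean and SD over 5 libraries.

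Most p53 targets were higher in the knockout. The set was chosen with earlier results of these data known, so the counts below describe the list. Of the 36, 31 rose and 2 fell, where 21.9% of all tested genes rose and 24.1% fell. In either direction 33 of the 36 passed the test, against 46.0% of all tested genes. A called rise above 1 on the log2 scale was seen for 5 of the 36 (GDF15, CDKN1A, BTG2, PHLDA3 and BBC3), against 1.32% of all tested genes. Their median log2 fold change was 0.57, against 0.002 over all tested genes. In 24 of the 36 the 5 knockout libraries lay above all 5 WT libraries, which held for 16.3% of all tested genes, and in 2 they lay below, which held for 17.7%. The genes that mark the set all rose: CDKN1A by 1.91, GDF15 by 3.33 and BAX by 0.57 on the log2 scale. In these bulk libraries, more cells that express a gene and more RNA per cell cannot be told apart.

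**Figure D2:**
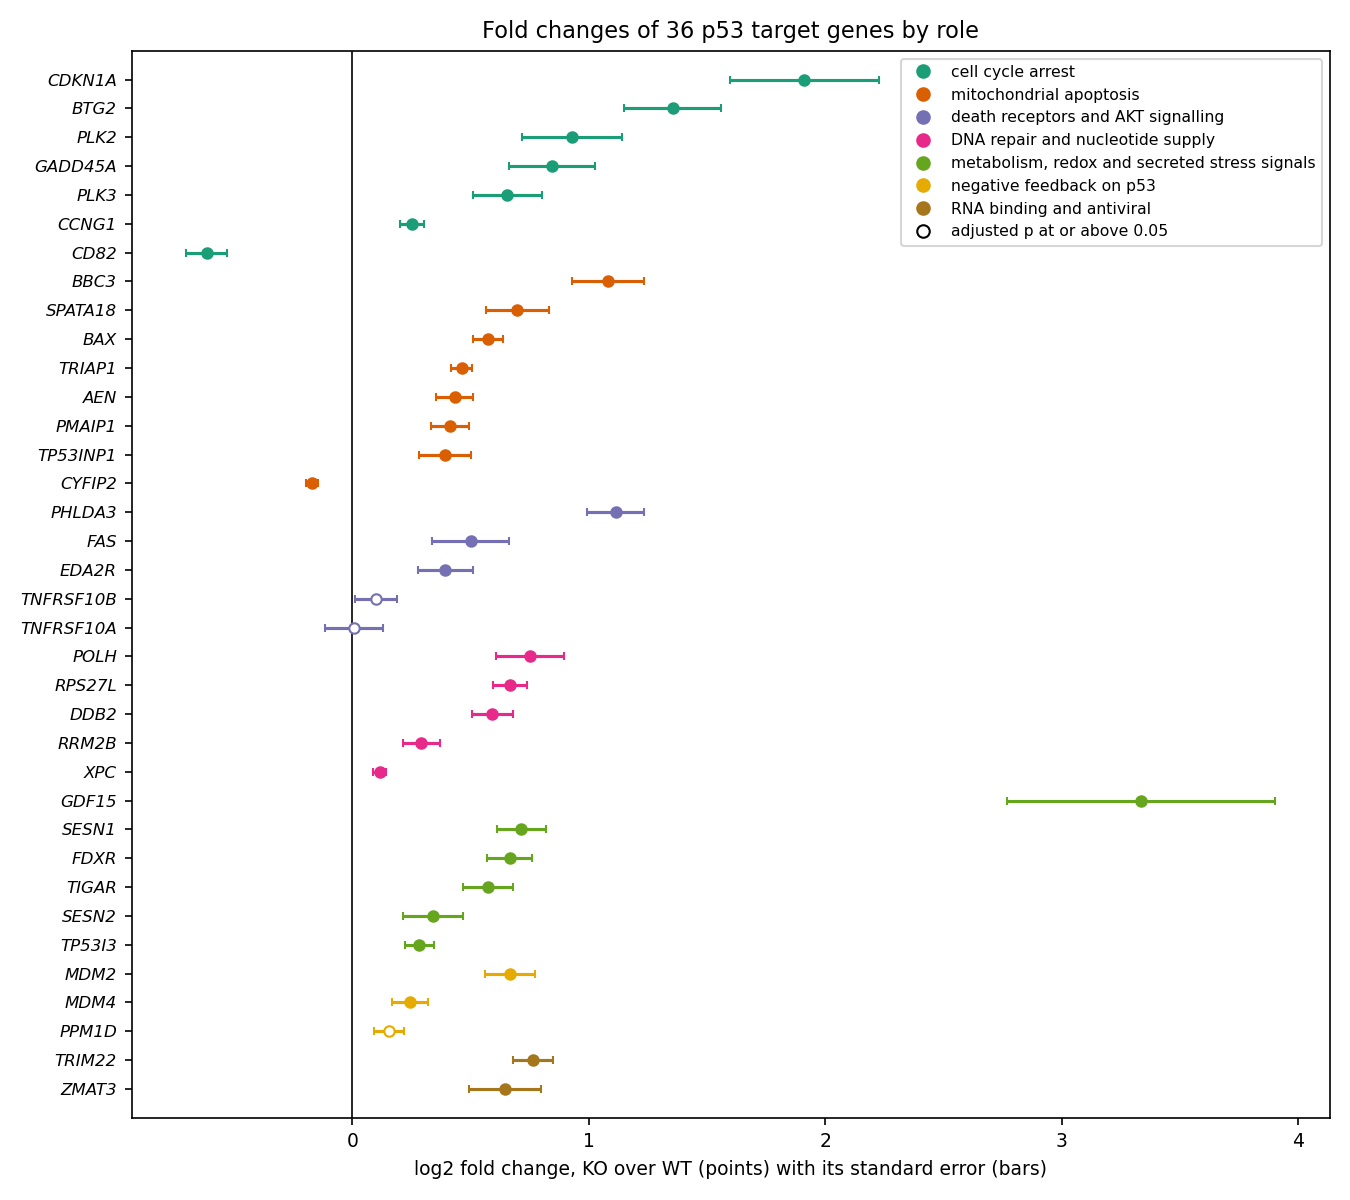
Log2 fold change of each of the 36 p53 target genes, knockout over WT (x axis, points), with the standard error from edgeR's fit (bars), grouped by role on the y axis. Filled points passed an adjusted p of 0.05, and open points (TNFRSF10A, TNFRSF10B and PPM1D) did not. GDF15 and CDKN1A lie farthest to the right, and CD82 and CYFIP2 lie left of 0.

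Of the 7 genes grouped under cell cycle arrest, 6 rose and 1 fell, where 21.9% of all tested genes rose and 24.1% fell. The roles here and below only sort the list, and a count within a role does not measure that function. CDKN1A (ENSG00000124762, chr6:36676460-36687339, hg38, plus strand) encodes p21, the inhibitor of cyclin-dependent kinases through which p53 halts cells in G1. It held 26.2, 38.4, 101, 85.3 and 59.7 CPM in knockout replicates 1 to 5, against 19.6, 15.4, 17.6, 12.8 and 17.3 CPM in WT replicates 1 to 5. Every knockout library was above the highest WT library, but the knockout libraries differed among themselves by a factor of 3.86 from replicate 1 to replicate 3. The group means were 62.1 ± 31.2 CPM in knockout cells and 16.5 ± 2.57 CPM in WT cells (log2 fold change 1.91, SE 0.32, adjusted p = 0.000436).

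BTG2, an antiproliferative gene, held 11.9, 14.7, 25.4, 26.6 and 19.6 CPM in knockout replicates 1 to 5, against 7.97, 7.42, 8.83, 6.05 and 8.1 CPM in WT replicates 1 to 5. The groups did not overlap, and replicates 3 and 4 stood highest in the knockout (log2 fold change 1.36, SE 0.21, adjusted p = 0.000237). GADD45A, a stress sensor that binds PCNA and cyclin B1/CDK1, held 25.7, 28.9, 57.1, 44.6 and 38 CPM in knockout replicates 1 to 5, against 23.9, 21.1, 22.6, 20.4 and 20.5 CPM in WT replicates 1 to 5. Here knockout replicate 1 lay only just above the WT range while replicate 3 was farthest from it (log2 fold change 0.84, SE 0.18, adjusted p = 0.00248). The polo-like kinase genes PLK2 and PLK3 averaged 22.6 ± 8.59 and 10.7 ± 2.63 CPM in the knockout, against 11.9 ± 0.667 and 6.79 ± 0.585 CPM in WT (log2 fold changes 0.93 and 0.66). CCNG1, cyclin G1, was already abundant and rose by 0.25 on the log2 scale, at 446 ± 36.1 CPM in knockout cells and 374 ± 11.8 CPM in WT cells.

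CD82, a tetraspanin known as a suppressor of metastasis, went the other way. It held 5.68, 5.62, 4.32, 4.51 and 5.24 CPM in knockout replicates 1 to 5, against 7.41, 8.08, 7.32, 8.22 and 7.82 CPM in WT replicates 1 to 5 (log2 fold change -0.62, SE 0.09, adjusted p = 0.000141). All knockout libraries lay below all WT libraries, and replicates 3 and 4, the highest for CDKN1A, were the lowest for CD82.

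**Figure D3:**
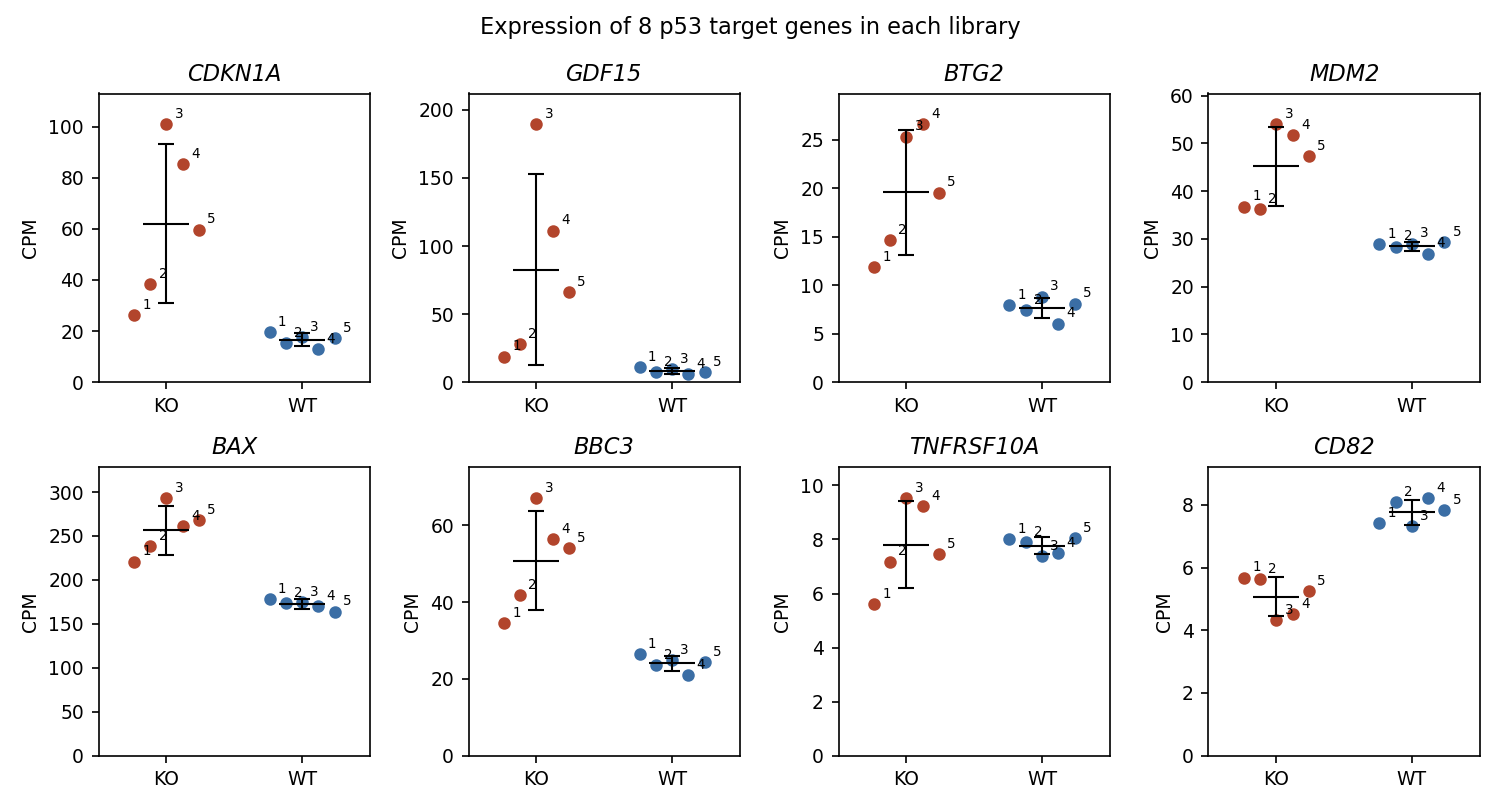
CPM (y axis, linear, from 0) of 8 p53 target genes in each knockout (KO) and WT library (points, with the replicate number beside each), with the mean and SD of 5 libraries per group (black bars). The knockout points of CDKN1A spread from 26.2 to 101 CPM above a compact WT group, those of TNFRSF10A span the WT range, and those of CD82 lie below it.

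Of the 8 genes grouped under mitochondrial apoptosis, 7 rose and 1 fell, where 21.9% of all tested genes rose and 24.1% fell. BAX (ENSG00000087088, chr19:48954815-48961798, plus strand), which forms pores in the outer mitochondrial membrane, held 221, 238, 293, 261 and 268 CPM in knockout replicates 1 to 5, against 179, 174, 175, 170.4 and 164 CPM in WT replicates 1 to 5. The groups did not overlap (log2 fold change 0.57, SE 0.06, adjusted p = 2.72e-05). BBC3, which encodes the BH3-only activator PUMA, held 34.5, 41.7, 67.1, 56.4 and 54.1 CPM in knockout replicates 1 to 5, against 26.5, 23.6, 24.8, 20.9 and 24.3 CPM in WT replicates 1 to 5. The ratio of means was 2.12, without overlap (log2 fold change 1.08, SE 0.15, adjusted p = 0.000131). PMAIP1, which encodes the BH3-only protein NOXA, held 187, 185, 248, 239.9 and 201 CPM in knockout replicates 1 to 5, against 161, 157, 168, 151 and 159 CPM in WT replicates 1 to 5. That is a smaller step, again without overlap (log2 fold change 0.41, SE 0.08, adjusted p = 0.00126).

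AEN, a nuclease gene named for enhancing apoptosis, averaged 172 ± 24 CPM in knockout cells and 128 ± 4.08 CPM in WT cells (log2 fold change 0.43). TRIAP1, a small mitochondrial protein that restrains apoptosis, held 57.9, 57.7, 66, 65.7 and 63.9 CPM in knockout replicates 1 to 5, against 46.2, 44.7, 46.1, 44.4 and 44.5 CPM in WT replicates 1 to 5. Both groups were compact and did not overlap, and its p was the smallest of the set (log2 fold change 0.46, SE 0.04, adjusted p = 7.63e-06). SPATA18, linked to the disposal of damaged mitochondrial proteins, was scarce in both groups at 4.55 ± 0.27 CPM in knockout cells and 2.8 ± 0.576 CPM in WT cells (log2 fold change 0.70, SE 0.13, adjusted p = 0.00107), and its knockout libraries were close together, from 4.27 to 4.91 CPM. TP53INP1, a nuclear stress protein, rose by 0.39 (adjusted p = 0.0118) with 4 of 5 knockout libraries above the WT range, and its adjusted p was 0.0518 without knockout replicate 3, WT 2 and WT 3. CYFIP2, a subunit of the actin-regulating WAVE complex, fell slightly, to 101 ± 1.89 CPM in knockout cells, against 113 ± 2.86 CPM in WT (log2 fold change -0.17, SE 0.03, adjusted p = 0.000193).

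Of the 5 genes grouped under death receptors and AKT signalling, 3 rose (21.9% of all tested genes) and 2, both receptors of TRAIL, did not pass the test. TNFRSF10A, which encodes the TRAIL receptor DR4, held 5.61, 7.18, 9.54, 9.25 and 7.46 CPM in knockout replicates 1 to 5, against 8.02, 7.92, 7.39, 7.5 and 8.06 CPM in WT replicates 1 to 5. Knockout replicates 1 and 2 lay below every WT library and replicates 3 and 4 above every WT library, and the means were 7.81 ± 1.61 CPM in knockout cells and 7.78 ± 0.313 CPM in WT cells (log2 fold change 0.01, SE 0.12, adjusted p = 0.96). TNFRSF10B, which encodes the TRAIL receptor DR5, held 139.7, 153, 212, 182 and 169 CPM in knockout replicates 1 to 5, against 169.5, 155, 159, 157 and 158 CPM in WT replicates 1 to 5. Again 2 knockout libraries lay below and 2 above the WT range (log2 fold change 0.10, SE 0.09, adjusted p = 0.392).

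FAS, the receptor of FAS ligand, held 2.55, 2.78, 4.02, 4.61 and 3.33 CPM in knockout replicates 1 to 5, against 2.73, 2.48, 2.0, 2.35 and 2.72 CPM in WT replicates 1 to 5. Knockout replicates 2 to 5 lay above the WT range, replicate 2 only just, and replicate 1 inside it (log2 fold change 0.50, SE 0.16, adjusted p = 0.0258), and 8.93% of its exonic bases are shared with ACTA2 on the opposite strand. The FAS call was lost without knockout replicate 3 (adjusted p = 0.0553), knockout 4 (0.0673), WT 3 (0.0611) or WT 4 (0.052), without knockout 3, WT 2 and WT 3 together (0.147), and with an offset for gene length and GC (0.0556). EDA2R, the X-linked receptor of ectodysplasin A2, averaged 19.2 ± 2.85 CPM in knockout cells and 14.6 ± 2.0 CPM in WT cells (log2 fold change 0.39, SE 0.11, adjusted p = 0.0143), with knockout replicate 1 inside the WT range. PHLDA3, which competes with AKT for membrane lipids, held 51.6, 60.2, 86.3, 76.3 and 73.2 CPM in knockout replicates 1 to 5, against 35.8, 31.9, 31.9, 29.1 and 32.2 CPM in WT replicates 1 to 5. The ratio of means was 2.16, without overlap (log2 fold change 1.11, SE 0.12, adjusted p = 2.00e-05).

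All 5 genes grouped under DNA repair and nucleotide supply rose (21.9% of all tested genes), each without overlap (16.3% of all tested genes). For RRM2B this was only just so (lowest knockout library 91.25 CPM, highest WT library 91.21 CPM). DDB2, which recognises ultraviolet lesions for nucleotide excision repair and whose promoter window held the closest consensus match, held 64.8, 75.2, 88.3, 85 and 79.4 CPM in knockout replicates 1 to 5, against 60.0, 49.7, 53.5, 44.9 and 52.3 CPM in WT replicates 1 to 5 (log2 fold change 0.59, SE 0.09, adjusted p = 0.000209). POLH, the translesion polymerase eta, held 7.02, 8.85, 12.8, 12.5 and 9.4 CPM in knockout replicates 1 to 5, against 5.97, 6.06, 6.05, 5.94 and 6.09 CPM in WT replicates 1 to 5. Its WT libraries lay close together while the knockout libraries differed by a factor of 1.82 (log2 fold change 0.75, SE 0.14, adjusted p = 0.00113). XPC, another lesion sensor, rose slightly, at 79.5 ± 2.03 CPM in knockout cells and 73.3 ± 1.86 CPM in WT cells (log2 fold change 0.12, SE 0.03, adjusted p = 0.0045), and 6.63% of its exonic bases are shared with LSM3 on the opposite strand. RRM2B, the p53-inducible small subunit of ribonucleotide reductase, averaged 104 ± 13.5 CPM in knockout cells and 85.4 ± 5.09 CPM in WT cells (log2 fold change 0.29). RPS27L, a paralog of ribosomal protein S27, held 90.1, 91.4, 118, 107 and 113 CPM in knockout replicates 1 to 5, against 68.7, 65.3, 64.6, 65 and 63.3 CPM in WT replicates 1 to 5. The groups lay well apart (log2 fold change 0.67, SE 0.07, adjusted p = 1.78e-05), but reads may be shared with its close paralog.

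All 6 genes of metabolism, redox balance and secreted stress signals rose, where 21.9% of all tested genes did. GDF15 (ENSG00000130513, chr19:18374731-18389176, plus strand), a secreted cytokine of the TGF-beta superfamily used as a marker of cell stress, had the largest fold change of the 36. It held 18.8, 28, 189, 111 and 66.3 CPM in knockout replicates 1 to 5, against 10.8, 7.36, 9.41, 5.76 and 7.55 CPM in WT replicates 1 to 5. The knockout libraries did not overlap with WT, but they differed among themselves by a factor of 10.1, and replicate 1 was nearer to WT than to replicate 3. The group means were 82.7 ± 69.9 CPM in knockout cells and 8.18 ± 1.96 CPM in WT cells (log2 fold change 3.33, SE 0.57, adjusted p = 0.000535), and without knockout replicate 3 the log2 fold change was 2.78 (adjusted p = 0.000486).

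SESN1, a sestrin that restrains mTORC1, held 39.6, 43, 58.5, 58.4 and 51.5 CPM in knockout replicates 1 to 5, against 32.3, 30.8, 31.5, 27.9 and 30.5 CPM in WT replicates 1 to 5 (log2 fold change 0.71, SE 0.10, adjusted p = 0.000163). The other sestrin gene, SESN2, held 51.6, 57.4, 89.3, 75.5 and 58.5 CPM in knockout replicates 1 to 5, against 51.5, 53.2, 54.8, 49.8 and 53.2 CPM in WT replicates 1 to 5. It rose by 0.34 (adjusted p = 0.0438), with knockout replicate 1 inside the WT range and replicates 3 and 4 farthest from it. Its call was lost in 10 of 18 alternatives, among them the fit without knockout replicate 3 (log2 fold change 0.21, adjusted p = 0.0721), that without knockout replicate 4 (0.104) and each of the 5 fits without a WT library (0.0585 to 0.0865). FDXR, the mitochondrial ferredoxin reductase, held 35.6, 44.1, 55.1, 51.3 and 50.2 CPM in knockout replicates 1 to 5, against 30.7, 29, 30.8, 28.2 and 30.3 CPM in WT replicates 1 to 5. The groups did not overlap (log2 fold change 0.67, SE 0.10, adjusted p = 0.00017). TIGAR, a fructose bisphosphatase that lowers glycolytic flux, averaged 14.4 ± 2.25 CPM in knockout cells and 9.68 ± 0.856 CPM in WT cells (log2 fold change 0.57, SE 0.10, adjusted p = 0.000874), but 42.6% of its exonic bases are shared on the same strand with the clone-named gene AC008012.1, so reads may be split between them. TP53I3, a quinone oxidoreductase, averaged 23.8 ± 1.81 CPM in knockout cells and 19.6 ± 1.29 CPM in WT cells (log2 fold change 0.28, SE 0.06, adjusted p = 0.00243) and had its lowest knockout values in replicates 3 and 4.

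Of the 3 genes that restrain p53, 2 rose, where 21.9% of all tested genes did. MDM2 (ENSG00000135679, chr12:68808176-68850686, plus strand) held 36.8, 36.3, 54, 51.7 and 47.3 CPM in knockout replicates 1 to 5, against 28.9, 28.4, 29, 26.9 and 29.3 CPM in WT replicates 1 to 5. The groups did not overlap (log2 fold change 0.67, SE 0.11, adjusted p = 0.000316). MDM4, the MDM2 relative that blocks the activation domain of p53, held 27, 26.5, 34.6, 33 and 33.4 CPM in knockout replicates 1 to 5, against 26.4, 25.5, 26.9, 24.3 and 27.4 CPM in WT replicates 1 to 5. It rose by 0.24 (adjusted p = 0.0204), with 3 of 5 knockout libraries above the WT range. The MDM4 call was lost without knockout replicate 4 (adjusted p = 0.0511), without knockout replicate 5 (0.0541), without WT replicate 4 (0.0502) and without knockout 3, WT 2 and WT 3 together (0.0768). PPM1D, the phosphatase WIP1, averaged 17.4 ± 0.818 CPM in knockout cells and 15.6 ± 1.44 CPM in WT cells and did not pass (log2 fold change 0.15, SE 0.06, adjusted p = 0.0662), but it passed with the gene length and GC offset (0.0172) and without WT replicate 4 (0.0396).

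Both remaining genes rose, where 21.9% of all tested genes did. TRIM22, an antiviral ubiquitin ligase, held 58.5, 67, 79.8, 75.3 and 73.6 CPM in knockout replicates 1 to 5, against 46.5, 38.4, 44, 37.2 and 42.7 CPM in WT replicates 1 to 5 (log2 fold change 0.76, SE 0.08, adjusted p = 2.61e-05), without overlap. ZMAT3, an RNA-binding protein that acts on splicing, averaged 26.9 ± 7.05 CPM in knockout cells and 17.2 ± 1.16 CPM in WT cells (log2 fold change 0.65, SE 0.15, adjusted p = 0.00463), with knockout replicate 1 (17.9 CPM) inside the WT range.

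The comparison was also fitted with an offset for gene length and GC content. With it 31 of the 36 genes rose and 2 fell, and the median was 0.49, against -0.012 over the 19163 genes tested. Over all 18 alternative fits, of which this is 1, 3596 to 4537 of all tested genes rose and 3598 to 4731 fell. FAS was no longer among the genes that rose, and PPM1D was. The log2 fold change of BAX was then 0.35, that of PMAIP1 0.27, that of TRIAP1 0.26, that of CCNG1 0.16 and that of CYFIP2 -0.083, each nearer to 0 by more than 1.5 times and still past the threshold. XPC (0.19) and MDM4 (0.39) lay farther from 0 than without the offset.

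The knockout libraries differed from one another in a shared order. The mean over the 36 genes of log2 CPM minus the WT mean was 0.24, 0.40, 0.88, 0.77 and 0.60 in knockout replicates 1 to 5, and -0.105 to 0.079 in the 5 WT libraries. Of the 36 genes, 26, 30, 34, 33 and 31 lay above the highest WT library in knockout replicates 1 to 5, where 32.6%, 31.6%, 33.5%, 34.4% and 34.0% of all tested genes did. Replicate 3 was the highest knockout library for 29 of the 36 genes (25.3% of all tested genes), and replicate 1 the lowest for 27 (24.4%). In 29 of the 36, replicates 1 and 2 both lay below replicates 3, 4 and 5, which held for 19.8% of all tested genes. This split, and the choice of replicates 3 and 1 above, came from these same values and were not set beforehand, so the counts only describe the list. The exceptions to the split were TP53I3, XPC, PLK3, SPATA18, PPM1D, CD82 and CYFIP2. The full order of replicates 1, 2, 5, 4 and 3 from low to high, which was also seen in the data and not set beforehand, held for 19 of the 36 and for 4.76% of all tested genes. The SD of log2 CPM was greater in the knockout than in WT for 33 of the 36 genes (64.4% of all tested genes) and more than 2 times as great for 26 (23.2%). The median ratio of the SDs was 2.93 for the 36 genes and 1.25 for all tested genes.

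**Figure D4:**
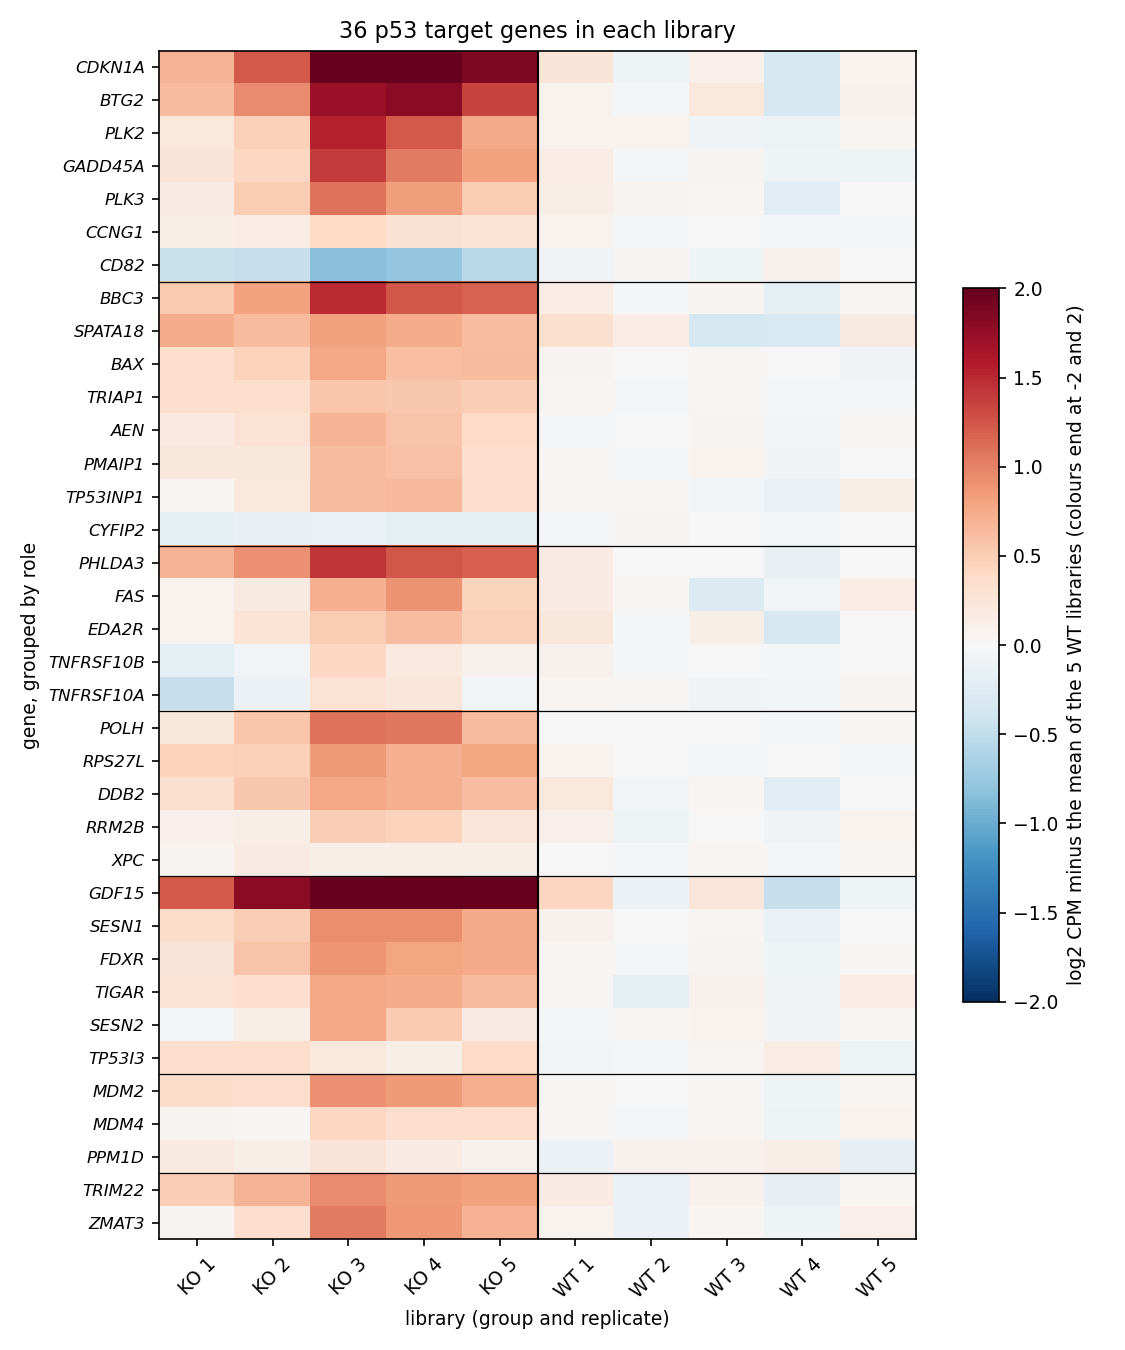
Log2 CPM minus the mean of the 5 WT libraries (colour, red above and blue below, ending at -2 and 2) for the 36 p53 target genes (y axis, grouped by role) in each knockout (KO) and WT library (x axis). The knockout columns of replicates 3, 4 and 5 are darker than those of replicates 1 and 2 in most rows, and CD82 and CYFIP2 are blue.

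On the second principal component, whose sign is arbitrary, knockout replicate 1, the lowest for the p53 targets, and replicate 3 lay at the 2 ends of the knockout libraries. Knockout replicates 4 and 5 were nearly level there (-2.26 and -2.04). Knockout replicate 1 also had the fewest counts of the 5 knockout libraries. Among WT libraries, the deepest (replicate 2, 47319933 counts) had a mean of -0.016 for the set and replicate 3, the lowest on that component, had 0.02. The part of depth or of this component in the order was not tested. Without knockout replicate 3, WT 2 and WT 3, 27 of the 36 genes rose and 2 fell, with a median of 0.50. The median over the 19438 genes tested in that fit was -0.004. Over all 18 alternative fits, 3596 to 4537 of all tested genes rose and 3598 to 4731 fell.

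Targets of ATF4 and CHOP, transcription factors of the integrated stress response that also act on SESN2, PMAIP1 and GDF15, followed the knockout libraries in the same order. The same mean for that list was 0.119, 0.163, 0.768, 0.521 and 0.301 in knockout replicates 1 to 5, and -0.069 to 0.028 in the WT libraries. SESN2 is in both lists. Of 21 tested, 14 rose and 1 fell, against 21.9% and 24.1% of all tested genes, and the median log2 fold change was 0.30. DDIT3, which encodes CHOP, held 5.95, 6.68, 19.7, 12.2 and 9.54 CPM in knockout replicates 1 to 5, against 4.35, 4.8, 4.29, 3.59 and 3.81 CPM in WT replicates 1 to 5 (log2 fold change 1.37, SE 0.28, adjusted p = 0.00199). PPP1R15A, a phosphatase subunit that ends the response, averaged 32.6 ± 9.21 CPM in knockout cells and 17 ± 0.535 CPM in WT cells (log2 fold change 0.94, SE 0.15, adjusted p = 0.000402), and ATF4 itself rose by 0.25. The part of these factors in the levels of the p53 targets was not tested.

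**Figure D5:**
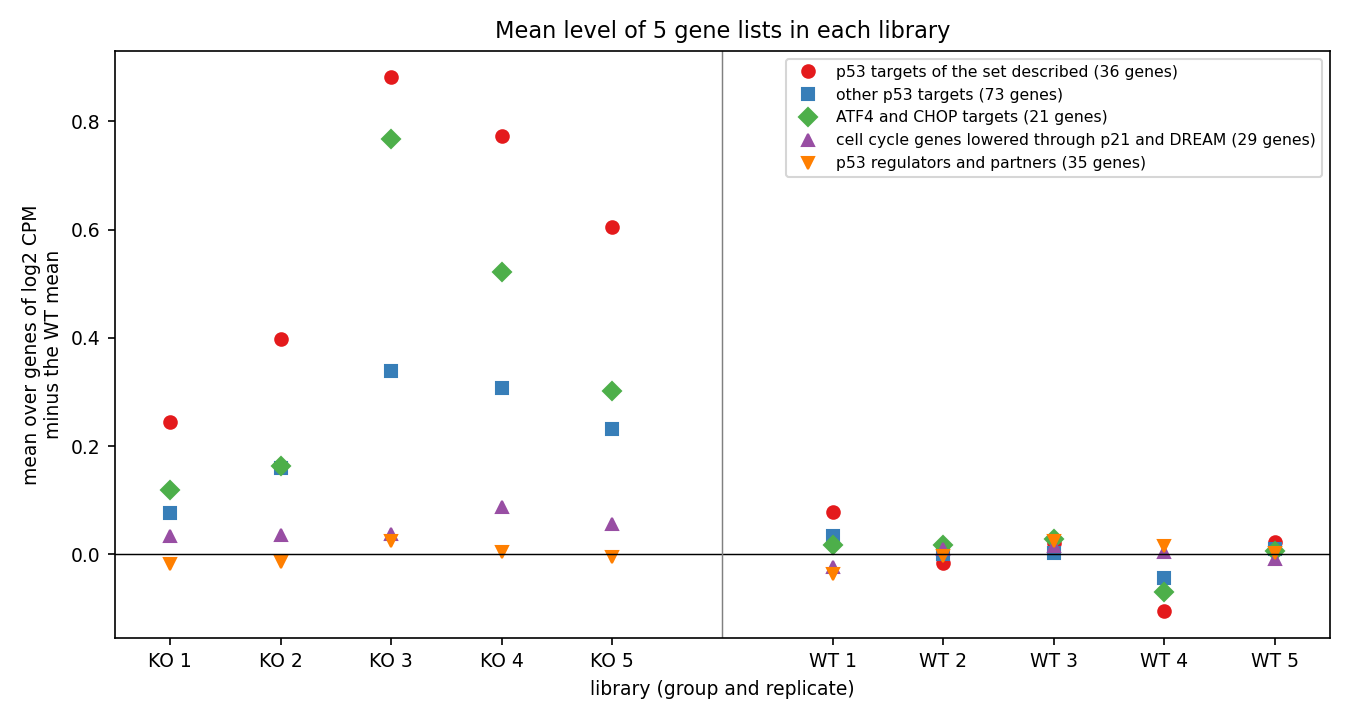
Mean over the tested genes of each list of log2 CPM minus the WT mean (y axis) in each knockout (KO) and WT library (x axis), for the 36 p53 targets and 4 other lists (symbols, with the number of genes tested). The 36 targets run from 0.24 in knockout replicate 1 to 0.88 in replicate 3, with the ATF4 and CHOP list and the other p53 targets in the same order. The mean of the 35 regulators and partners of p53 stays between -0.037 and 0.024 in all 10 libraries, but it averages genes that move both ways (9 rose and 11 fell, against 21.9% and 24.1% of all tested genes).

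TP73, which encodes a relative of p53, averaged 8.08 ± 0.733 CPM in knockout cells and 7.5 ± 0.332 CPM in WT cells (adjusted p = 0.236, and 0.0237 with the length and GC offset), TP63 had at most 0.0413 CPM in any library, and CDKN2A, the source of the MDM2 antagonist ARF, stayed between 0.103 and 0.306 CPM. TP63 and CDKN2A did not pass the filter. Of 35 tested regulators and partners of p53, 9 rose and 11 fell, shares near the 21.9% and 24.1% of all tested genes, and the median log2 fold change was 0.002. ATM, the kinase that signals double-strand breaks, fell by 0.18 on the log2 scale (adjusted p = 0.0135), a call lost with the offset (-0.028, 0.616), and CHEK2, its target kinase, averaged 76 ± 4.75 CPM in knockout cells and 75.5 ± 1.55 CPM in WT cells (adjusted p = 0.872). PRKDC, the DNA-dependent protein kinase, averaged 441 ± 25.9 CPM in knockout cells and 598 ± 30.8 CPM in WT cells (log2 fold change -0.44, SE 0.05, adjusted p = 1.76e-05; -0.24 with the offset). DYRK2, a kinase of p53, fell by 0.26 (-0.14 with the offset), and SIRT1, a deacetylase of p53, rose by 0.36. RPL11, RPL5 and NPM1, whose products bind MDM2, are named, like PRKDC, DYRK2 and SIRT1, for having the smallest p of this list. Their values therefore do not describe a class of genes. RPL11 averaged 1342 ± 55.6 CPM in knockout cells and 977 ± 45.1 CPM in WT cells (log2 fold change 0.46, SE 0.04, adjusted p = 2.96e-06). RPL5 and NPM1 rose by 0.27 and 0.35. With the offset these were 0.27 for RPL11, 0.079 for RPL5 and 0.22 for NPM1, all past the threshold, though their reads may be split with processed pseudogenes.

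A further 74 genes known as p53 targets were listed beside the 36. This list, like the 36, was chosen with earlier results of these data known, so its counts are a description and no independent check. Of 73 tested, 44 rose and 7 fell, beside those same shares of 21.9% and 24.1% over all tested genes, and the median log2 fold change was 0.21. DRAM1, a lysosomal protein that promotes autophagy, held 7.56, 9.07, 10.2, 10.5 and 10.1 CPM in knockout replicates 1 to 5, against 5.54, 4.8, 4.87, 4.81 and 4.73 CPM in WT replicates 1 to 5 (log2 fold change 0.94, SE 0.09, adjusted p = 1.10e-05). The ceramide synthase gene CERS5 averaged 64.9 ± 6.79 CPM in knockout cells and 37.9 ± 0.52 CPM in WT cells (log2 fold change 0.78, SE 0.06, adjusted p = 2.25e-06), and NTPCR, a nucleoside triphosphatase, 104 ± 10.7 CPM in knockout cells and 62.8 ± 2.94 CPM in WT cells (log2 fold change 0.72, SE 0.06, adjusted p = 4.96e-06). BLOC1S2, a subunit of a complex for lysosome-related organelles, rose by 0.59 (0.38 with the offset), the LIM-domain coregulator FHL2 by 0.47 and TMEM68 by 0.42. The mean over the list was 0.076, 0.160, 0.339, 0.308 and 0.232 above WT in knockout replicates 1 to 5, smaller than for the 36 in each library. The 7 that fell were ACER2, CES2, FAM210B, PANK1, PLXNB2, RAP2B and TLR3, by 0.17 to 0.67, and were named after their values were seen.

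Genes of the cell cycle that p53 is known to lower through p21 and the DREAM repressor complex did not fall together. Of 29 tested, 10 rose and 3 fell, where 21.9% and 24.1% of all tested genes did, and the median log2 fold change was 0.05. CCNB1, mitotic cyclin B1, averaged 278 ± 8.78 CPM in knockout cells and 248 ± 4.54 CPM in WT cells (log2 fold change 0.16, SE 0.03, adjusted p = 0.000447; 0.070 with the offset), and UBE2C, a ubiquitin-conjugating enzyme of mitosis, 148 ± 10.5 CPM in knockout cells and 123 ± 2.37 CPM in WT cells (log2 fold change 0.27, SE 0.04, adjusted p = 0.000366). The UBE2C call was lost with the offset (0.074, adjusted p = 0.148), as were those of CCNB2 (0.039, 0.348) and CDC20 (0.057, 0.104), which had risen by 0.17 and 0.14. ASPM, a spindle pole protein, fell by 0.26 (adjusted p = 4.48e-05; -0.13 with the offset). The list's mean over WT was 0.033 to 0.088 in the 5 knockout libraries and did not follow the order of the p53 targets, with knockout replicate 3 at 0.037.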

How the data were processed

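PolyA RNA was sequenced with 150 paired-end cycles, per the labels. Raw gene counts were deposited by the authors for 10 libraries (28615751 to 47319933 counts) with no normalization, and these were tested here. Per the submitters' processing notes, the build was hg38 and the tools included DESeq2 and R 3.6.3. The sources used here do not name an aligner, a counter, an annotation or a strand setting. A second table that the authors deposited compares the groups by a normalised mean signal, log2 fold changes and their errors, a test score, and raw and adjusted p-values. It gave the gene symbols and the values named as the authors'.

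Groups and replicate numbers came from the sample titles. The test was that of edgeR 4.0.16, run in R 4.3.3 (filterByExpr, TMM, glmQLFit and glmQLFTest on group). The standard error is the log2 fold change divided by the root of its F statistic. Log2 CPM use a prior count of 2. The chi-square per degree of freedom between libraries of a group lay between 3.59 and 26.2, above sampling noise. Each library was counted as 1 replicate, though such scatter does not show that the cultures were separate. Positions, transcript lengths and exon overlaps came from GENCODE 29 (GRCh38, the assembly also called hg38). The fit was tested on simulated counts.

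Alternatives were scaling by DESeq2 size factors, the Wald test of DESeq2 1.42.0, voom in limma 3.58.1, no filter, 1 CPM in 5 libraries, a replicate block, a fit without knockout 3, WT 2 and WT 3, an offset for gene length and GC (splines with 5 degrees of freedom on the length and GC of 1 transcript per gene), and leaving out each library. The members and lists were chosen with earlier results of these data known. By rule the text may name all 36 members, KCNH2, ATM, CHEK2, TP63, TP73, CDKN2A and up to 6 tested genes with the smallest p from each other list. A further gene that the rule covers is not reported here. Figures were drawn in Python 3.11.15.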

Additional observations from a re-analysis of the deposited data

Results flagged for a closer look

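Among 156 groups of 5 libraries (78 genes in 2 groups), 7 held a library whose gap to the nearest of the others exceeded 0.71 of the group's range. The cutoff flags about 1 group in 20 where values are independent and normal. The groups here come from the same 10 libraries, and each flagged TP63 group has reads in a single library. The 7 of 156 are therefore not set against that share. WT replicate 1 was the library apart for TNFRSF10B (169.5 CPM, against 154.5 to 158.7 in the other WT libraries), DRAM1 (5.54 CPM, against 4.73 to 4.87) and DNMT3B (737.6 CPM, against 805 to 824.5). WT replicate 4 stood apart for AURKA (93.4 CPM, against 98 to 99.7) and NANOG (66.1 CPM, against 72.5 to 73.6). TP63 was seen in knockout replicate 1 (0.0336 CPM) and WT replicate 2 (0.0413 CPM), with 0 counts in the other libraries. No knockout library met this rule for any of the 36 p53 targets.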

How the results depend on the processing

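Over 18 alternatives, 27 to 32 of the 36 p53 targets rose and 2 fell, and the median log2 fold change lay between 0.492 and 0.642. Over the same alternatives 3596 to 4537 of all tested genes rose and 3598 to 4731 fell, with 15934 to 32152 genes tested. The fits that left out 1 library gave 28 to 31 higher, 2 lower and a median of 0.52 to 0.642. The direction and call stayed the same for 29 of the 36 genes in all 18 alternatives. The other 7 were FAS, SESN2, MDM4, TP53INP1, PPM1D, TNFRSF10A and TNFRSF10B, and none of the 31 rises or 2 falls changed sign. With the length and GC offset FAS, ATM, UBE2C, CCNB2, CDC20 and L1TD1 lost their calls and PPM1D, TP73 and DNMT3B gained one, and L1TD1, a pluripotency gene, lost its call under other alternatives too. The 44 rises and 7 falls among other targets became 38 to 46 and 5 to 8. The replicate numbers did not pair the libraries (correlations of same-numbered deviations -0.157 to 0.698). With the number as a replicate block, 32 targets rose and 2 fell, as PPM1D passed (0.157, adjusted p = 0.0494). Signs changed only for genes that did not pass the test. TNFRSF10A was at -0.0083 with the replicate block, -0.0826 without KO 3, WT 2 and WT 3, and -0.0705 to 0.118 leaving out 1 library. TNFRSF10B was at -0.00602 without KO 3, WT 2 and WT 3. CHEK2 was at -0.0101 there, -0.0849 with the length and GC offset and -0.0155 to 0.0477 leaving out 1 library. MIXL1 was at -0.000168 with 1 CPM in 5 libraries, -0.016 with the block, -0.0277 without KO 3, WT 2 and WT 3, -0.0408 with the offset and -0.0926 to 0.115 leaving out 1 library. Leaving out 1 library also gave -0.0496 to 0.21 for AFP and -0.0874 to 0.0191 for TNNT2. The cause of these changes was not tested. Depth limits TP63 and CDKN2A, whose counts lie near the floor of 3.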

Other observations

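Levels can be compared between genes only per length of transcript. In CPM per kilobase of 1 GENCODE transcript per gene, BAX stood highest of the 36 at 323 in the knockout and 217 in WT. CCNG1 followed at 181 in the knockout and 152 in WT, and PMAIP1 at 109 in the knockout and 81.7 in WT. GDF15 was at 68.9 in the knockout and 6.81 in WT, and CDKN1A at 27.4 in the knockout and 7.3 in WT. FAS (1.35 in the knockout and 0.958 in WT) and SPATA18 (1.04 in the knockout and 0.638 in WT) were the scarcest of the set on this scale.

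In the authors' deposited table, 30 of the 36 genes have a positive and 2 a negative log2 fold change with an adjusted p-value under 0.05. The authors' own call is carried by 14, all of them higher. That call does not rest on the adjusted p-value alone. TRIAP1 does not carry it at a log2 fold change of 0.47 and an authors' adjusted p of 7.05e-20. The shares over all genes of that table were not counted, so neither count is set against a background. The authors' deposited table gives GDF15 a log2 fold change of 0.94 and CDKN1A one of 1.03, below the 3.33 and 1.91 of the fit used here, while for BAX both give 0.57. The DESeq2 Wald test run here on the deposited counts gave 3.35 for GDF15, 1.92 for CDKN1A and 0.58 for BAX. The authors' smaller values may thus be on another scale and are not a second measurement. The cause of the difference was not tested.

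Exons of 13 of the 36 genes overlap those of another gene in the count table, and for 9 of them the other gene averages at least 1 CPM. FAS (2.96 CPM over all libraries) shares 8.93% of its exonic bases with ACTA2 (2.17 CPM) on the opposite strand, and XPC shares 6.63% with LSM3 (74.9 CPM). Without a stated strand setting, reads of such pairs cannot be told apart.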
